A study of Mus musculus with 9 samples.

Results

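This report describes the genes of liver-type plasma proteins and apolipoproteins in RNA sequencing libraries of mouse hearts. Of 38 genes named for it, 37 had a row among the 22851 genes of the count matrix, and Serpina3k was not analysed here. The genes were picked by name and then sorted by their counts in the 9 libraries, so all values of their pattern across libraries are given as a description without a test. Bulk RNA cannot tell a change in the number of cells of a type from a change in RNA per cell.

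Male mice, C57BL/6 in the labels and C57BL/6J in the methods, were 6 to 8 weeks old at the start and formed 3 groups of 3 libraries. The control check (CK) group received citrate buffer. The diabetic cardiomyopathy (DCM) group received a single injection of streptozotocin at 180 mg/kg, which destroys the insulin-producing beta cells, and hearts were taken 12 weeks later. The spermine (SPM) group was made diabetic in the same way. Its mice also had the polyamine spermine at 1 mg/kg, with 2 weeks of daily pretreatment and alternate-day dosing until the hearts were taken. The methods state both 3 mice per group and 18 hearts in pools of 6, so a library may be a mouse or a pool, and p-values measure only the spread between these libraries. The deposited extraction text names retinas while the tissue label names the heart. The summed level of 7 cardiomyocyte markers was 39882 to 55561 CPM (counts scaled to equal library totals), and that of 7 retina markers was 0.589 to 1.75 CPM.

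Hepatocytes secrete most of the proteins dissolved in blood plasma, among them albumin, the lipid-carrying apolipoproteins, the protease inhibitors called serpins, and the zymogens of clotting and complement. Their genes are kept active in the liver by shared transcription factors, above all HNF4A and the C/EBP family, and most are silent or nearly silent in heart muscle. Some of the same proteins, such as vitronectin and haptoglobin, are also made outside the liver.

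Promoters of 29 of the measured genes were found in the RefSeq table for GRCm38.p6, each as the 250 bases before and 50 bases after a transcription start. Those of 6 genes are shown because they cover the range of patterns described below. Alb, Fgb and Serpina1b were concentrated in a few libraries, Ahsg and Vtn were present in all 9 libraries, and Cyp2e1 lay between. Capitals mark matches on either strand to TTGCNNAA (the C/EBP core) or to TATAAA (the TATA box), and in Vtn 2 matches to TATAAA on opposite strands overlap. Each is written 5′ to 3′ on the strand of its gene, and RefSeq starts can differ from the GENCODE gene bounds given further on.
Alb (chr5:90460620-90460919, + strand): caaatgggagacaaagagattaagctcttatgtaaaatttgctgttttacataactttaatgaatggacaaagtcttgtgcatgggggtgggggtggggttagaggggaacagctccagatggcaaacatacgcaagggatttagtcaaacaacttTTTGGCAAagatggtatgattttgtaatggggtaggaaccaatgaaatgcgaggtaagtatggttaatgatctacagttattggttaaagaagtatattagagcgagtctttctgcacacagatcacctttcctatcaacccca
Fgb (chr3:83049814-83050113, - strand): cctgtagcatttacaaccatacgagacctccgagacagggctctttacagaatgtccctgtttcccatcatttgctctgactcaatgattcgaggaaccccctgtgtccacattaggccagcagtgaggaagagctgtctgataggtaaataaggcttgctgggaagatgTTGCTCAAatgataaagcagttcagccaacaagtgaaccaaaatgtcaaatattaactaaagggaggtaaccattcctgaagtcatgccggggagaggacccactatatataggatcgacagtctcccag
Serpina1b (chr12:103738140-103738439, - strand): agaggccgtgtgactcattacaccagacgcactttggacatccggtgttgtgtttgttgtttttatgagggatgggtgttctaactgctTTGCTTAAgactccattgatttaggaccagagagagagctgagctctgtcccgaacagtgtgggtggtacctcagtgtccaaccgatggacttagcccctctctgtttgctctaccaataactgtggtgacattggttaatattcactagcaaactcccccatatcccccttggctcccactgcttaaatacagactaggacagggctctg
Ahsg (chr16:22891765-22892064, + strand): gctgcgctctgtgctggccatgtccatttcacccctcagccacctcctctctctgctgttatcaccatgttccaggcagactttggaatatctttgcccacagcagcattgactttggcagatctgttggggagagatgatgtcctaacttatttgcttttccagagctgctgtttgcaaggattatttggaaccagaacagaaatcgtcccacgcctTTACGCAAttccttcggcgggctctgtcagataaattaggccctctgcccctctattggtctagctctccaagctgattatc
Vtn (chr11:78498870-78499169, + strand): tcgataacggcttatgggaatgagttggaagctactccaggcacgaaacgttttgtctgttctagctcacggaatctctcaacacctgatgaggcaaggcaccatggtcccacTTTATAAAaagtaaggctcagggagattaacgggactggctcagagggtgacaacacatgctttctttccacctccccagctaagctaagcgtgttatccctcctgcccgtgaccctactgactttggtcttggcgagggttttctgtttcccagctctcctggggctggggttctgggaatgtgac
Cyp2e1 (chr7:140763569-140763868, + strand): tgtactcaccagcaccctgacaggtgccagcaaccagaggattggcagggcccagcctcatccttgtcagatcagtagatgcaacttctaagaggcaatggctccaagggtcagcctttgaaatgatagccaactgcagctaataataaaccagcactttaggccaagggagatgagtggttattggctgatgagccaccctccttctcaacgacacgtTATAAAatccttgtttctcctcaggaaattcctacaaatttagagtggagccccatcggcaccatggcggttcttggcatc

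The C/EBP core started 94 bases before the start site in Alb, 80 in Fgb, 161 in Serpina1b and 32 in Ahsg. It was found in a promoter of 12 of the 29 genes, of which 10 belonged to the 23 genes concentrated in a few libraries. Of all 32851 mouse promoters in the table, 10.8% held it. The 29 are counted by gene and the background by promoter, so a gene with several promoters would have more chances to match. The TATA box started 31 bases before the start site in Cyp2e1 and was found in 9 of the 29 genes and in 13.6% of all promoters. The HNF4 site CAAAGTCCA, searched on both strands like the others, was found in 0 of the 29 genes and in 0.475% of all promoters. These are matches of letters and show no binding.

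Total counts were 29901300 to 39718680. Mitochondrial genes held 21.0% to 21.1% of them in the 3 SPM libraries, above all CK libraries (13.7% to 16.2%) and all DCM libraries (15.5% to 18.9%), and their part in the SPM comparisons was not tested. Other differences lay within groups. Lung markers were far highest in CK_2, with a summed level of 56.0 CPM over 7 genes against 0.1003 to 0.942 CPM in the other libraries. Of these genes, Ager had 3 to 59 counts in every library. The 6 adipose markers summed to 145 CPM in CK_2 against 15.7 to 55.8 CPM in the others. SPM_1 and SPM_2 held exocrine pancreas markers at 3.62 and 1.79 CPM over 7 genes, against 0 to 0.501 CPM elsewhere. Over 22645 genes outside every list used here, SPM_2 was best fitted as a mixture with 45.4% of SPM_1 and the rest of SPM_3 (interval 45.2% to 45.7%). Of 15674 such genes with at least 10 counts in SPM_1 and SPM_3 together, 96.6% lay within 2 SD of counting error of that mixture. The values of SPM_1 and SPM_2 are therefore given separately. The SPM comparisons still fit the 3 SPM libraries as separate replicates, so their standard errors and adjusted p would be too small if SPM_2 shares material with the others, which was not tested.

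Most of the plasma protein genes were counted almost exclusively in SPM_1, SPM_2 and CK_2, and this divided each of the SPM and CK groups. For each gene the share of its summed CPM that lay in these 3 libraries was computed, where equal levels give 33.3%. The share was at least 80% for 29 genes, called concentrated here, 60.8% to 71.8% for 5 genes (Cyp2e1, Hp, Rbp4, Tat and Itih3), and 34.0% and 38.9% for Vtn and Ahsg. Among all 18509 genes with at least 10 counts the median share was 33.5%, and 296 genes (1.60%) reached 80%. The gene just above the limit was Apoa2 with 81.3% and the gene just below was Itih3 with 71.8%. Trf, which encodes the iron carrier transferrin, had 0 to 3 counts in each library. Its annotated exons overlap those of Gm20425 on the same strand, so its level is uncertain.

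**Figure D1:**
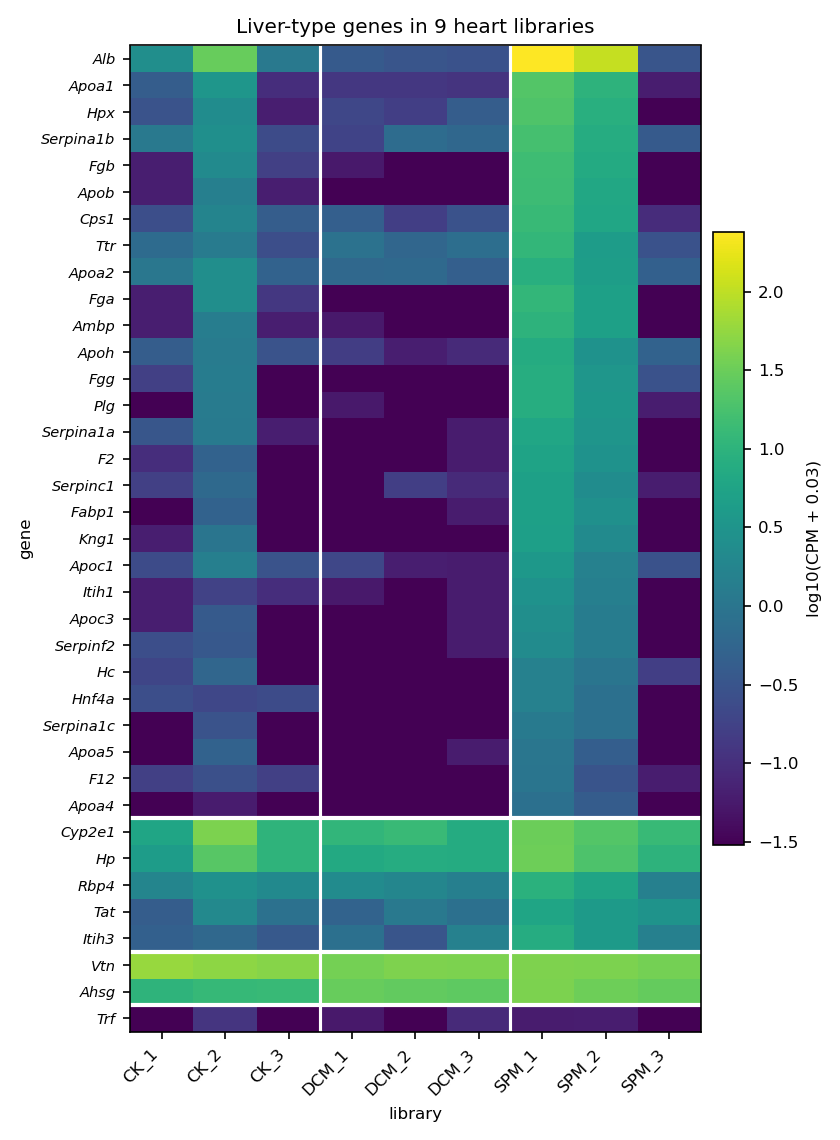
Heat map of the 37 measured genes (vertical axis) in the 9 libraries (horizontal axis), coloured by log10 of CPM plus 0.03. White lines part, from top to bottom, the 29 concentrated genes, the 5 in-between genes, Vtn and Ahsg, and Trf. The concentrated genes are bright in SPM_1 and SPM_2, weaker in CK_2, and dark in most other libraries.

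Over the 29 concentrated genes the median count was 201 in SPM_1, 93 in SPM_2 and 42 in CK_2, and 0 to 4 in the other 6 libraries. None of the 29 was at 0 in SPM_1, SPM_2 or CK_2, whereas 12 of them were at 0 in CK_3, 16 in DCM_1, 19 in DCM_2, 12 in DCM_3, 16 in SPM_3 and 5 in CK_1. A count of 0 allows a level of up to 0.0755 to 0.1003 CPM in these libraries. SPM_3, the remaining spermine library, thus had as many silent plasma protein genes as DCM_1.

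Their summed level was 451 CPM in SPM_1, 208 CPM in SPM_2 and 2.64 CPM in SPM_3. In the DCM libraries it was 3.07, 2.72 and 3.09 CPM, and in the CK libraries 8.46, 62.3 and 3.78 CPM. SPM_1 was 147-fold and SPM_2 67.7-fold above the median DCM library, and SPM_3 was 0.859 times that median. As a share of all counts SPM_3 held 0.000264% (95% Wilson interval 0.000213% to 0.000327%), which overlaps the interval of each DCM library, while SPM_1 held 0.0451% (0.0444% to 0.0459%). Without Alb the ratio for SPM_1 was 77.6. These intervals cover counting error only.

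Albumin, the main protein of plasma and a carrier of fatty acids and hormones, was the most abundant of these genes (Alb, ENSMUSG00000029368, chr5:90460897-90476602). It had 8041, 3517 and 9 counts in SPM_1, SPM_2 and SPM_3. The counts were 75, 1010 and 33 in the CK libraries and 14, 9 and 9 in the DCM libraries. SPM_3 was thus at the DCM level, and CK_1 and CK_3 lay above every DCM library.

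The other concentrated carriers bind heme, thyroxine or proteases. Hpx, the heme scavenger hemopexin, had 681, 281 and 0 counts in the SPM libraries, 8, 79 and 1 in CK and 7, 4 and 14 in DCM. Ttr, the thyroxine carrier transthyretin, kept a low level in every library, with 379, 138 and 8 counts in SPM, 20, 42 and 7 in CK and 34, 17 and 26 in DCM. Ambp, the precursor of alpha-1-microglobulin and bikunin, had 335 and 159 counts in SPM_1 and SPM_2, 45 in CK_2 and at most 1 in any other library. Itih1, a heavy chain that is linked to hyaluronan, had 96, 45 and 5 counts in SPM_1, SPM_2 and CK_2 and at most 2 elsewhere. Apart from Ttr, whose DCM libraries lay between CK_3 and CK_2 in level, these carriers were high in SPM_1 and SPM_2 only, with CK_2 next.

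All 8 apolipoprotein genes were concentrated. Apoa1, the main protein of high-density lipoprotein, had 732, 318 and 1 counts in SPM, 12, 112 and 2 in CK and 4, 3 and 3 in DCM. Apob, the structural protein of low-density and very-low-density lipoprotein, had 478 and 207 counts in SPM_1 and SPM_2, 49 in CK_2, 1 in each of CK_1 and CK_3, and 0 in SPM_3 and the 3 DCM libraries. Apoa2, the next protein of high-density lipoprotein, had 292, 139 and 14 counts in SPM, 31, 86 and 14 in CK and 24, 19 and 15 in DCM, so it was present in all libraries and its SPM_3 level of 0.445 CPM lay within the DCM range of 0.429 to 0.622 CPM. Apoh, which binds anionic phospholipids, had 253, 93 and 15 counts in SPM against 5, 1 and 2 in DCM. SPM_3 thus lay above every DCM library for Apoh, as it did at 8 or fewer counts for Apoc1, Fgg and Hc and at 1 count for F12 and Plg.

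The smaller apolipoprotein genes followed the same libraries at lower counts. Apoc1 and Apoc3, both inhibitors of lipoprotein clearance, had 118 and 83 counts in SPM_1, 48 and 12 in CK_2, and 8 and 0 in SPM_3. Apoa4, best known from the intestine, had 27 and 12 counts in SPM_1 and SPM_2, 1 in CK_2 and 0 in the other 6 libraries. Apoa5, an activator of lipoprotein lipase, had 33, 13 and 16 counts in SPM_1, SPM_2 and CK_2. Apoa1, Apoc3, Apoa4 and Apoa5 lie together on chromosome 9.

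All 5 measured serpin genes were concentrated. Serpina1b, a form of alpha-1-antitrypsin, the inhibitor of neutrophil elastase, had 571, 250 and 11 counts in SPM, 33, 88 and 6 in CK and 6, 21 and 20 in DCM. Serpina1a had 201 and 101 counts in SPM_1 and SPM_2 and 40 in CK_2, and Serpina1c had 40, 25 and 9. Serpinc1, which encodes antithrombin, had 164, 75 and 21 counts in the same libraries, and Serpinf2, the inhibitor of plasmin, had 77, 40 and 11. The longest transcripts of Serpina1a, Serpina1b and Serpina1c are 96.8% to 98.2% identical, so the counting step could divide reads between them. Serpina1e, a near copy that is not a member, went another way, with 20, 5 and 5 counts in SPM, 21, 26 and 9 in CK and 18, 1 and 9 in DCM.

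The genes of clotting, complement and the kinin system were closest to absent in the DCM libraries. Their 8 genes together had 2, 0 and 1 counts in the DCM libraries, against 1847, 809 and 14 in SPM and 18, 321 and 11 in CK. The fibrinogen chains Fga, Fgb and Fgg, neighbours on chromosome 3 that form the clot, had 382, 498 and 267 counts in SPM_1. They had 156, 234 and 108 in SPM_2 and 86, 74 and 43 in CK_2. SPM_3 had 0, 0 and 8 counts of them, and the DCM libraries had 1 count in all, of Fgb in DCM_1.

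Prothrombin (F2) and plasminogen (Plg), the precursors of the proteases that make and dissolve fibrin, had 184 and 273 counts in SPM_1, 93 and 109 in SPM_2, and 16 and 42 in CK_2. Kininogen (Kng1) had 160, 69 and 33 counts in the same order of libraries, complement component C5 (Hc) had 51, 31 and 19, and coagulation factor XII (F12) had 32, 9 and 8. F12 also had 4 counts in each of CK_1 and CK_3 and none in DCM. In no DCM library did any of these 8 genes exceed 1 count.

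Among the genes of hepatocyte metabolism, Cps1, the first enzyme of the urea cycle, had 432, 197 and 2 counts in SPM, 7, 57 and 12 in CK and 17, 4 and 9 in DCM. Fabp1, the fatty acid binding protein of the liver, had 164, 85 and 16 counts in SPM_1, SPM_2 and CK_2 and at most 1 elsewhere. Hnf4a, the transcription factor that keeps many of these genes active in hepatocytes, had 51, 25 and 0 counts in SPM, 7, 6 and 6 in CK and 0 in all 3 DCM libraries. Unlike the secreted proteins, Hnf4a was therefore not raised in CK_2 over the other CK libraries.

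Compared per gene length, albumin had the highest level of the 37 genes in SPM_1 and SPM_2 but not in CK_2. On the deposited scale of FPKM (counts divided by gene length and by library total) the level of Alb was 118 in SPM_1, 54.3 in SPM_2 and 14.6 in CK_2, and 0.127 to 1.23 in the other 6. In CK_2 Vtn with an FPKM of 30.3, Cyp2e1 with 22.2 and Hp with 17.3 stood above it. Alb made up 46.4% of the summed FPKM of the 29 genes in SPM_1, followed by Apoa1 with an FPKM of 21.1, Apoa2 with 16.9 and Hpx with 13.6. The lowest in SPM_1 were Hnf4a with 0.350 and Hc with 0.280. In the DCM libraries the order was another: Vtn with an FPKM of 20.9 to 24.3 and Ahsg with 17.2 to 20.3 stood far above Alb with 0.127 to 0.173.

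The concentrated genes kept nearly the same proportions in SPM_2 as in SPM_1. The ratio of their CPM in SPM_2 to that in SPM_1 had a median of 0.467, from 0.295 for F12 to 0.657 for Serpina1c, and the 95% interval of counting error held the median for 28 of the 29 genes, Ttr being the exception. The mixture of SPM_1 and SPM_3 fitted on other genes predicted 6569.6 counts of the 29 genes in SPM_2, and 6619 were observed. All 29 lay within 2 SD of counting error of the prediction, against the 96.6% of other genes given above.

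CK_2 did not keep these proportions. The ratio of CK_2 to SPM_1 had a median of 0.146 and ran from 0.0364 for Apoa4 to 0.477 for Apoa5, and for 10 of the 29 genes the interval left out the median. Apoc1 and Apoa2 were relatively high in CK_2, and Itih1, F2 and Apob were relatively low. As a description across these 29 genes, Pearson's r of log10 CPM was 0.993 between SPM_1 and SPM_2 and 0.926 between SPM_1 and CK_2.

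**Figure D2:**
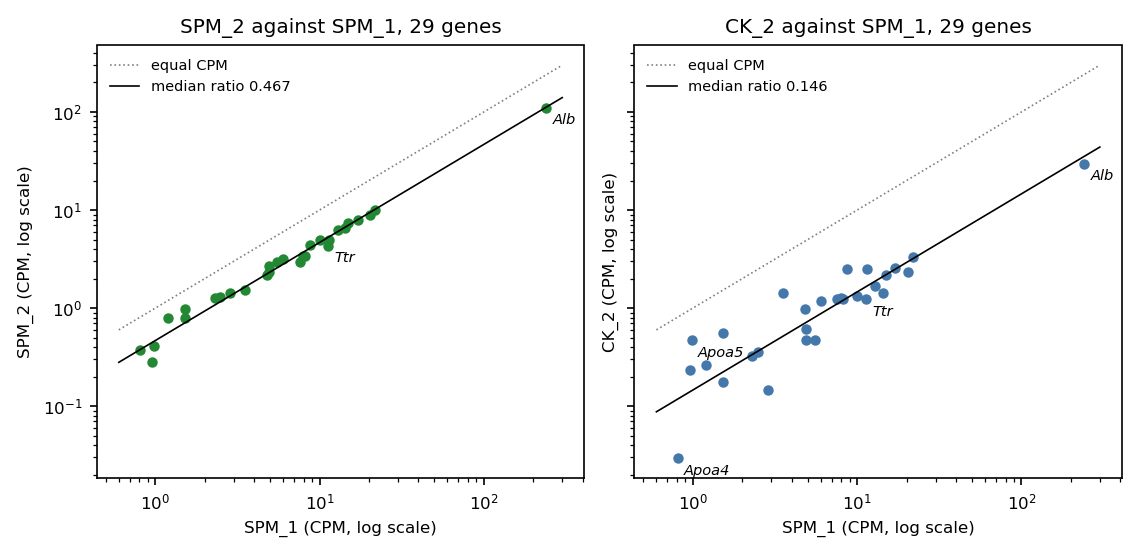
CPM of the 29 concentrated genes in SPM_2 (left) and CK_2 (right) on the vertical axis against SPM_1 on the horizontal axis, all on log scales, with a point for each gene. The black line is the median ratio, 0.467 on the left and 0.146 on the right, and the dotted line marks equal levels. The points hug the line on the left and scatter more widely on the right, where Apoa4 lies lowest and Apoa5 above the line.

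Fetuin-A and vitronectin were present in every library, and neither was raised in CK_2 over both other CK libraries. Ahsg encodes fetuin-A, which binds calcium phosphate and inhibits the insulin receptor (ENSMUSG00000022868, chr16:22891277-22899449). It had 10.2, 12.2 and 12.9 CPM in the CK libraries, 30.1, 27.4 and 25.5 in DCM, and 40.4, 33.3 and 28.8 in the SPM libraries. Every streptozotocin-treated library lay above every CK library. SPM_1 and SPM_2 held the highest levels, and SPM_3 lay within the DCM range. In CK the mean was 11.4 ± 1.43 CPM, against 28.5 ± 1.996 CPM in DCM (SD, n = 3, TMM-scaled), a log2 fold change of 1.32 (SE 0.11) for DCM compared to CK. SPM compared to DCM gave 0.31 (SE 0.12), with overlapping libraries, and SPM compared to CK gave 1.63 (SE 0.14). Across the main fit and 14 alternatives the change in DCM compared to CK stayed between 1.23 and 1.40. An annotated gene on the other strand, Gm30505, shares exon positions with Ahsg, and whether the counting used strand is not given in the sources used here.

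Vtn encodes vitronectin, an adhesion protein of plasma and matrix that also stabilises an inhibitor of fibrinolysis (ENSMUSG00000017344, chr11:78499091-78502324). It had 59.3, 52.9 and 46.5 CPM in CK, 36.4, 42.3 and 40.9 in DCM, and 42.1, 40.6 and 37.3 in the SPM libraries. All CK libraries were higher than all DCM and SPM libraries. The log2 fold change was -0.32 (SE 0.10) for DCM compared to CK, -0.31 (SE 0.09) for SPM compared to CK and 0.01 (SE 0.09) for SPM compared to DCM, all within the fold limit of 1.5 used for calls.

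The 5 in-between genes had a level in all libraries and were higher in some of SPM_1, SPM_2 and CK_2. Cyp2e1, a cytochrome P450 that oxidises ethanol and ketone bodies, was named at the outset as a steady gene, but its levels were 5.99, 40.7 and 10.4 CPM in CK, 11.2, 13.03 and 7.58 in DCM, and 32.2, 21.8 and 12.8 in the SPM libraries. CK_2 was the highest of the 9 libraries and SPM_3 lay below the highest DCM library. Hp, the haemoglobin scavenger haptoglobin, had 4.28, 23.2 and 10.4 CPM in CK, 7.07, 7.92 and 7.64 in DCM, and 33.5, 19.8 and 9.82 in the SPM libraries. Its SPM libraries lay above all DCM libraries, and CK_1 and CK_2 lay on either side of the DCM range.

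Rbp4, the retinol carrier, had 9.30 and 5.65 CPM in SPM_1 and SPM_2 and 1.43 to 2.77 CPM in the other 7 libraries, CK_2 included. Tat, a glucocorticoid-induced enzyme that breaks down tyrosine, had 5.92, 3.99 and 3.05 CPM in SPM, 0.401, 2.03 and 0.836 CPM in CK and 0.504, 1.11 and 0.801 in DCM. Itih3, a heavy chain like Itih1, had 7.71, 4.05 and 1.46 CPM in SPM, 0.435, 0.588 and 0.334 CPM in CK and 0.806, 0.295 and 1.52 CPM in DCM. For Tat all 3 SPM libraries, SPM_3 included, lay above all CK and DCM libraries. For Itih3 they lay above all CK libraries, while DCM_3 exceeded SPM_3.

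**Figure D3:**
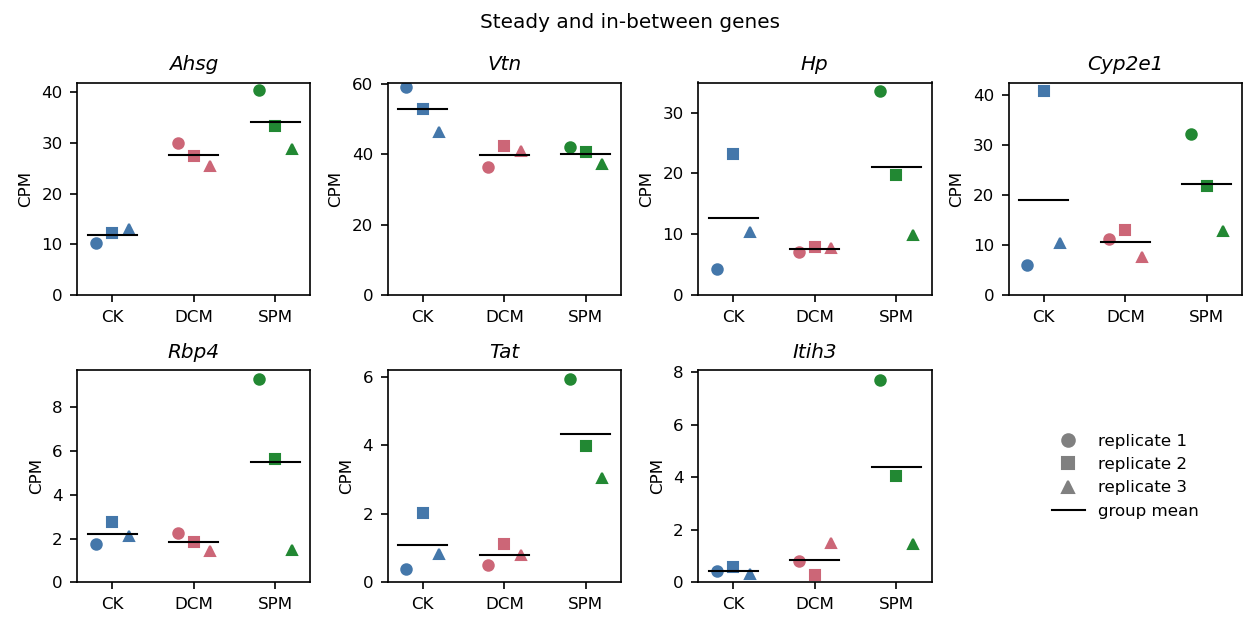
CPM (vertical axes, each from 0) of Vtn, Ahsg and the 5 in-between genes, by group (horizontal axis), with replicates 1, 2 and 3 as circles, squares and triangles and the group mean as a line. Ahsg is higher and Vtn lower in all DCM and SPM libraries than in CK, whereas Cyp2e1 and Hp peak in CK_2 (blue square) and SPM_1 (green circle).

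The group comparisons use the quasi-likelihood test of edgeR and call a gene at an adjusted p (Benjamini-Hochberg) of 0.05 with a fold limit of 1.5. A low-count filter left out many of the 37 genes, and a gene silent outside SPM_1, SPM_2 and CK_2 passed it only through those libraries, so the counts of calls are a description. In DCM compared to CK, 12 of the 37 were tested and 2 were called, Ahsg as higher and Alb as lower, and 4.34% of all 14402 tested genes were called, 2.03% as higher and 2.31% as lower. The median log2 fold change of the 12 was -0.51 against 0.00 over all genes. Libraries did not overlap for Ahsg, which was higher in DCM (14.6% of all genes), and for Vtn and Alb, which were lower (14.7% of all genes). Without CK_2 the same 2 genes were called. Without DCM_2 or without DCM_3 Ahsg was called and Alb was not. Without CK_1 there were 4 calls and without CK_3 there were 5. The share of all genes called in these fits is not given here.

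In SPM compared to DCM, 14 of the 37 were tested and 11 were called, all as higher in SPM, where 2.70% of all 14493 tested genes were called as higher and 0.890% as lower. They were Alb, Apoh, Apoa2, Itih3, Ttr, Hpx, Hp, Serpina1b, Cps1, Cyp2e1 and Tat. Only Apoh, Hp and Tat had SPM libraries that all lay above the DCM libraries, a pattern that 19.8% of all tested genes showed. The count depended on single libraries. It was 33 of 35 tested without SPM_3, 3 without SPM_2, 9 without SPM_1, 1 without DCM_1, 1 without DCM_2 and 4 without DCM_3. The share of all genes called with a library left out is not given here. The shift in the members was not set against the shift in calls over all genes, so nothing about the members is read from it. The log2 fold change of Tat was 2.45 (SE 0.34). Across the main fit and 14 alternatives it lay between 2.12 and 2.75, which is a description only.

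In SPM compared to CK, 31 of the 37 were tested and 3 were called, Ahsg, Tat and Itih3, all as higher, where 5.08% of all 14574 tested genes were called as higher and 4.12% as lower. Their libraries did not overlap, which held for 22.8% of all genes, and Vtn lay below CK without overlap, as did 23.5% of all genes. The log2 fold change of Tat was 2.06 (SE 0.50) and that of Itih3 was 3.36 (SE 0.59). Without SPM_3 the number was 29 of 35, again without the share of all genes beside it. With the replicate number as a block it was 17, although the numbers did not pair the libraries. All 3 comparisons share groups, so their values are not independent of each other.

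Hepatocyte genes outside the 37 were read from lists of other liver-secreted proteins, hepatocyte enzymes and transporters, and liver transcription factors, 87 of 94 measured. Of the 79 with at least 10 counts, 40 had a share of at least 80% in SPM_1, SPM_2 and CK_2, against 1.60% of all genes. These lists were drawn up with earlier results of these data known. They included Gc, the vitamin D carrier, with 660, 274 and 88 counts in SPM_1, SPM_2 and CK_2 and at most 7 elsewhere. Cyp3a11, a drug-oxidising cytochrome P450, had 152, 54 and 41 counts in the same libraries and at most 1 elsewhere. Cyp7a1, the first enzyme of bile acid synthesis, had 15 counts in SPM_1 and 6 in SPM_2 and was at 0 in the other 7 libraries.

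The liver transcription factors shared this pattern only in part. Of the 8 with at least 10 counts, 1 was past 80%, and the median share was 50.1%. It was 83.3% for Foxa2, 79.9% for Nr1i2, 72.2% for Nr1i3 and 60.7% for Creb3l3, all at 15 or fewer counts in any library. The share was 39.4% for Nr1h4, 37.2% for Cebpa, 32.0% for Nr0b2 and 31.4% for Nr5a2. Hnf4a, which stands among the 37 genes and not in this list, had 85.1%. Cebpa had 304 to 592 counts and Nr0b2 had 357 to 605 counts in every library. Among 16 lipoprotein genes that heart and other tissues are known to use, such as Lpl, Cd36, Apoe and Clu, 0 passed 80% and the median share was 34.0%. Apoe, for example, had 816 to 1177 CPM over the 9 libraries.

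**Figure D4:**
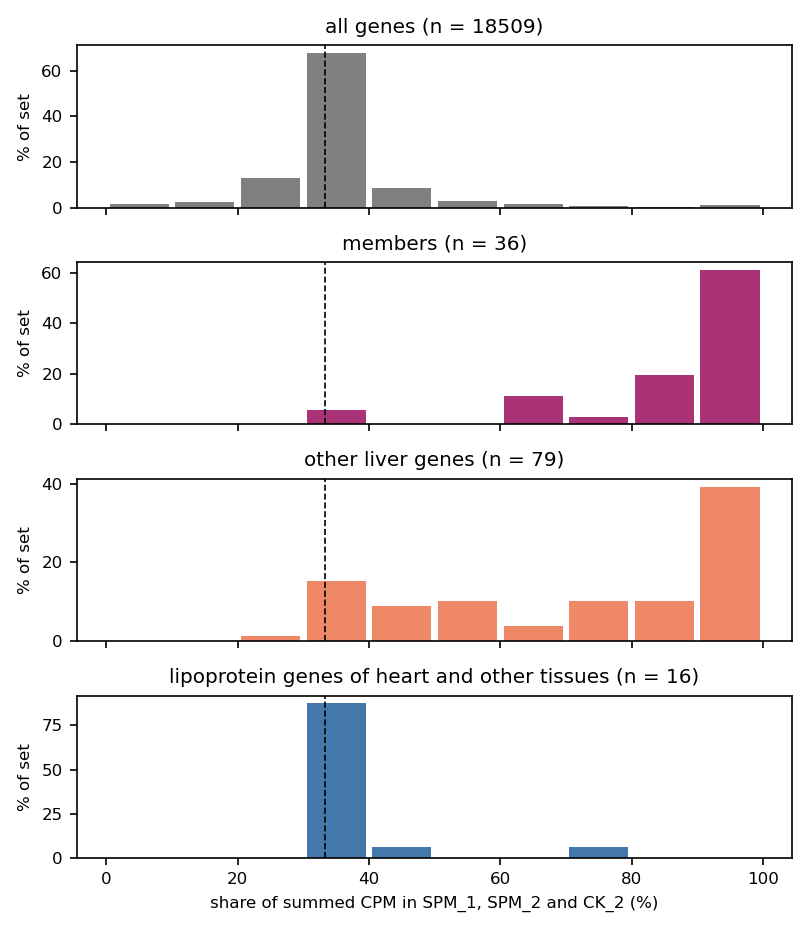
Share of a gene's summed CPM that lay in SPM_1, SPM_2 and CK_2 (horizontal axis, in bins of 10%) as percent of each set (vertical axis), for all 18509 genes with at least 10 counts, the 36 members, 79 other liver genes and 16 lipoprotein genes of heart and other tissues. The dashed line is the 33.3% that equal levels give. All genes and the lipoprotein genes peak at the line, whereas the members and the other liver genes peak above 90%.

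Some liver-associated genes outside the 37 changed with the group, and Agt, Adh1 and Fah had 33.7%, 33.2% and 27.1% of their level in SPM_1, SPM_2 and CK_2. Agt, the precursor of angiotensin, rose in DCM compared to CK (log2 fold change 1.01, SE 0.14, adjusted p = 0.000868 in edgeR), with 5.15 to 5.68 CPM in CK and 9.16 to 11.2 CPM in DCM. Its SPM libraries had 9.23 to 10.8 CPM. Adh1, an alcohol dehydrogenase, rose in the same comparison by 0.73 (SE 0.13, adjusted p = 0.00374 in edgeR), and both were also called in SPM compared to CK. Fah, the last enzyme of tyrosine breakdown, fell in SPM compared to DCM by 0.85 on the log2 scale (SE 0.10, adjusted p = 0.00652 in edgeR) and in SPM compared to CK by 0.62 (SE 0.07, adjusted p = 0.00125 in edgeR). It had 13.8 to 14.3 CPM in all 3 SPM libraries. The calls of Agt, Adh1 and Fah held under all 14 alternatives.

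Kmo, an enzyme of tryptophan breakdown, was called as lower in DCM and in SPM compared to CK (adjusted p = 0.0362 and 0.0390 in edgeR), and these calls were lost under 6 and 5 of 14 alternatives. F10, C6 and Proz, which encode coagulation factor X, complement component C6 and protein Z, rose in SPM compared to DCM (adjusted p = 0.0297, 0.0497 and 0.0258 in edgeR). Their calls were lost without SPM_1, without SPM_2 and without any single DCM library. For C6 the libraries overlapped, with 0.477 CPM in SPM_3 and 0.572 CPM in DCM_3, whereas those of F10 and Proz did not. In the lipoprotein list Apod, which carries arachidonic acid, rose in DCM compared to CK by 0.85 (SE 0.11, adjusted p = 0.000444 in edgeR) and in SPM compared to CK by 1.54 (SE 0.25, adjusted p = 0.00406 in edgeR). Mttp, which loads lipid onto Apob, rose in DCM compared to CK by 0.82 (SE 0.14, adjusted p = 0.00299 in edgeR). The other 13 tested genes of that list were not called in any comparison.

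In counts of list members called in DCM compared to CK, SPM compared to DCM and SPM compared to CK, the other liver genes gave 4 of 25, 4 of 28 and 6 of 46 tested. The background was 4.34%, 3.59% and 9.21%. Their median log2 fold changes were -0.10, 0.60 and 1.26, against a median of 0.00 to 0.01 over all genes. Other liver genes near 0 outside SPM_1, SPM_2 and CK_2 passed the low-count filter only through those libraries. The lists were also drawn up with earlier results known, so these counts and medians are a description. Without SPM_3 the counts for the latter comparisons were 40 of 58 and 38 of 60, and the shares of all genes called in these fits are not given here.

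The 15 genes outside every list whose log2 CPM over the 9 libraries was most like that of the summed concentrated genes were chosen among 15347 genes. They were Mug1, Cyp2d26, Mat1a, Bhmt2, Cyp2c70, Ces1c, Apon, Slc27a5, Akr1c6, Apof, Ugt3a2, Cyp2a12, Azgp1, Gjb1 and Cyp3a25, with Pearson's r of 0.997 to 0.968 over 9 libraries. Mug1, a protease inhibitor of mouse plasma, had 573, 260 and 92 counts in SPM_1, SPM_2 and CK_2, and 8 or fewer elsewhere. Mat1a, which makes S-adenosylmethionine, had 306, 124 and 85. With a pseudocount of 1 in place of 0.1, 7 of the 15 remained, and with Spearman's correlation 1 did.

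Markers of other cells and tissues were read beside these results. Of 6 Kupffer cell markers the summed level ranged over 8.12 to 15.1 CPM for CK, 12.5 to 14.3 for DCM and 18.7 to 26.5 for SPM, with SPM_1 highest. The defining Kupffer gene Clec4f had 1 to 16 counts in each library and was highest in CK_1. Marco, a scavenger receptor of macrophages, was the 1 of the 6 with a share past 80%, with 92, 51 and 32 counts in SPM, 1, 17 and 0 in CK and 3, 0 and 1 in DCM. Of the 5 tested, Marco, Cd5l and Vsig4 were called higher in SPM compared to DCM (2.70% of all genes) and in SPM compared to CK (5.08%). In DCM compared to CK 0 of 4 were called, against 4.34% of all genes in either direction. Of 5 markers of liver sinusoidal endothelium the sum was 35.2 to 43.7 CPM for CK, 34.0 to 42.2 for DCM and 39.5 to 61.3 for SPM, again with SPM_1 highest. Clec4g had 1 count in all and Stab2 had 0 to 8. At such low counts these and Clec4f cannot show whether they follow SPM_1, SPM_2 and CK_2. Fcgr2b, an Fc receptor that other cells also carry, had 1152, 734 and 491 counts in SPM, 683, 683 and 546 in CK and 635, 380 and 496 in DCM. It was the 1 of 2 tested that was called, as higher in SPM compared to DCM, where 2.70% of all genes were. The part of either cell type in the results was not tested.

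The exocrine pancreas gene Ctrb1 had 52 and 20 counts in SPM_1 and SPM_2 and was at 0 in the other 7 libraries. Cpb1, Pnlip, Cela3b and Amy2a5 were likewise at 0 in those 7, Amy2a5 with only 2 and 1 counts in SPM_1 and SPM_2. Cel had 12 and 7 counts in SPM_1 and SPM_2, 3 in CK_2 and 1 in CK_3. Cpa1 went another way, with 9, 7 and 0 counts in SPM, 5, 4 and 14 in CK and 2, 0 and 4 in DCM. The lung genes Scgb1a1 and Sftpc had 1105 and 538 counts in CK_2 and 0 in SPM_1 and SPM_2. Ltf, a secretory granule protein that also stands in the neutrophil list, had 606 counts in CK_2 and 0 to 20 elsewhere. Neutrophil markers summed to 19.4 to 44.6 CPM in SPM, 7.59 to 17.7 in DCM and 3.41 to 21.8 in CK. Ltf alone gave 17.8 CPM of the 21.8 CPM in CK_2. Of those tested, 2 of 3 were called higher in DCM compared to CK, where 2.03% of all genes were. In SPM compared to DCM 4 of 4 were (2.70% of all genes), and in SPM compared to CK 4 of 5 (5.08%). Small intestine (7 of 13 genes measured) and kidney (4 of 10) markers summed to 30.7 to 48.2 and 2.06 to 4.72 CPM. Erythroid markers (4 of 5) summed to 737 to 1264 CPM in SPM, 1285 to 3289 in DCM and 1589 to 3798 in CK, lowest in SPM_1. All 4 were called lower in SPM compared to DCM (0.890% of all genes) and in SPM compared to CK (4.12%), and 0 of 4 were called in DCM compared to CK. The part of other tissues in the levels of the plasma protein genes was not tested. With these libraries it cannot be told apart from a difference between single hearts or pools of hearts.

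**Figure D5:**
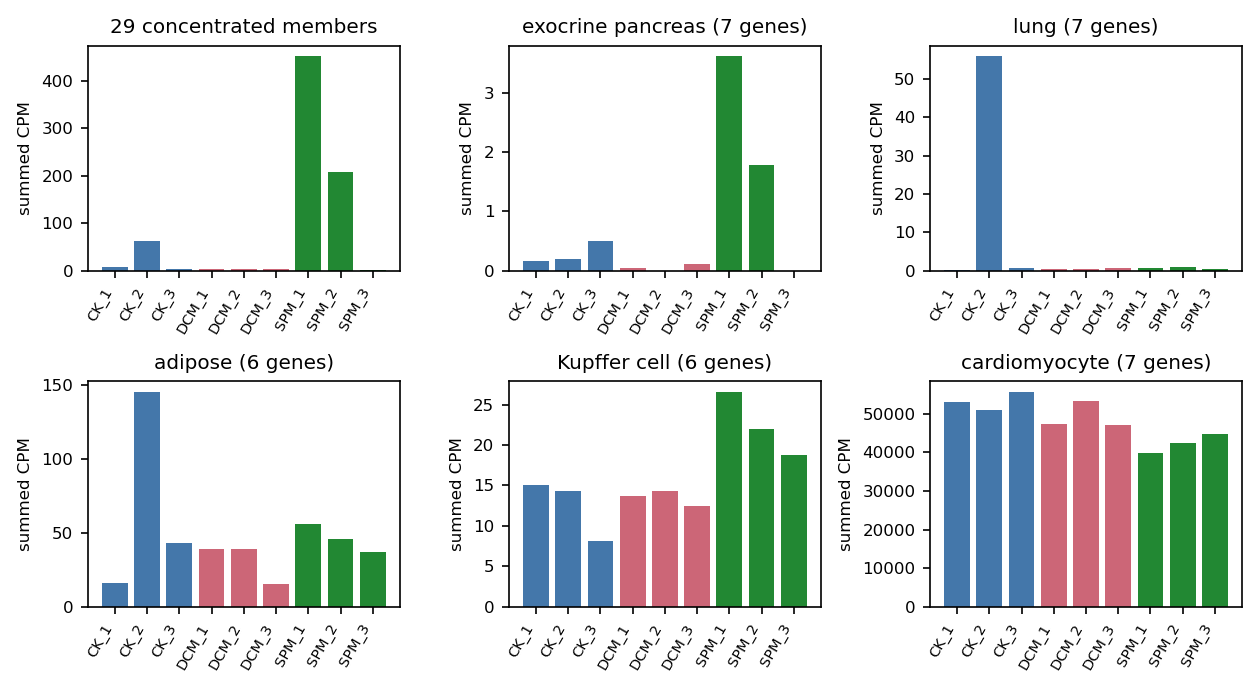
Summed CPM (vertical axes, each from 0) of the 29 concentrated genes and of 5 marker lists in the 9 libraries (horizontal axis), with CK in blue, DCM in red and SPM in green. The concentrated genes reach 451 CPM in SPM_1, the pancreas markers are highest in the same library at 3.62 CPM, and the lung and adipose markers are highest in CK_2 at 56.0 and 145 CPM.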

How the data were processed

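RNA of 9 mouse heart libraries was analysed, 3 each of CK, DCM and SPM, grouped by their deposited labels. The authors deposited whole-number counts for each gene in each library, and FPKM values, which are the counts divided by gene length and library total. Reads had been filtered with fastp 0.18.0. The submitters' processing notes also name Bowtie 0.12.2, mm8 and mm9. Their roles, the counting tool and the annotation were not given in the sources used here. No batch or date is given. Total counts were 29901300 to 39718680, and shares carry Wilson intervals at 95%.

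Symbols and coordinates came from GENCODE M21 (GRCm38) by Ensembl identifier, which matched 22820 of 22851. CPM used all counts of a library. Genes were sorted by their share in SPM_1, SPM_2 and CK_2 (concentrated at 80% or more, steady below 50% with at least 10 counts in every library). Groups were compared in pairs, 6 libraries each, with edgeR 4.0.16 in R 4.3.3 (filterByExpr, TMM, quasi-likelihood, adjusted p of 0.05, fold of 1.5), tested on simulated data. The mixture for SPM_2 was fitted on 22645 genes outside the lists. Likeness used log2(CPM + 0.1) of genes with at least 50 counts. Alternatives were RLE, other low-count filters, DESeq2 1.42.0, no fold limit, all 9 libraries together, a replicate block, limma 3.58.1 on log2(FPKM + 0.1), each library left out, other limits of the share, and sums without Alb or in FPKM. Tables and figures used biopython 1.88, matplotlib 3.10.9, scipy 1.17.1, pandas 2.3.3 and numpy 2.4.6 in Python 3.11.15.

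All 38 genes, the lists and the limits were chosen with earlier results of these data known. The rule for naming took every member, with values for the 3 most abundant of each role, the steady genes and Hnf4a, the 3 most abundant or the called genes of other lists, and the 15 most alike genes. Gc, Cyp3a11, Cyp7a1 and Serpina1e were named after their values were seen. A few items covered by this rule are not reported here. The replicate numbers did not pair the libraries: correlations of deviations were -0.0746 to 0.205 for the same number and -0.284 to 0.218 for other numbers.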

Additional observations from a re-analysis of the deposited data

How the results depend on the processing

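Members called. For DCM compared to CK (2) the number was 17 without a low-count filter, 6 with DESeq2, 1 with all 9 libraries in one fit, 1 with limma on FPKM, and 1 to 5 with a library left out. For SPM compared to DCM (11) it was 34 without a filter, 4 with at least 1 CPM in 3 libraries, 21 with DESeq2, 26 with all 9 libraries in one fit, 2 with limma on FPKM, and 1 to 33 with a library left out. For SPM compared to CK (3) it was 10 without a filter, 11 with all 9 libraries in one fit, and 2 to 29 with a library left out. Without a filter and with fewer libraries the number of genes tested changed too, and the cause of the other shifts was not tested. Shares of all genes called under these alternatives are not given here. Shifts of the members were not set against shifts over all genes, so nothing about the members is read from them.

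Other liver genes called. For DCM compared to CK (4) the number was 10 without a filter and 2 to 5 with a library left out. For SPM compared to DCM (4) it was 37 without a filter, 2 with at least 1 CPM in 3 libraries, 14 with DESeq2, 19 with all 9 libraries in one fit, 2 with limma on FPKM, and 1 to 40 with a library left out. For SPM compared to CK (6) it was 22 without a filter, 18 with DESeq2, 14 with all 9 libraries in one fit, and 3 to 38 with a library left out. These counts too stand without the shares of all genes.

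With the replicate number as a block, SPM compared to CK gave 17 members and 11 other liver genes, and the block moved no other of these counts by more than 1.5 times. The replicate numbers did not pair the libraries, so these are alternatives only.

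The number of concentrated genes was 22 at a share of 90%, 30 at 67%, and 29 with a count minimum of 3 or TMM-scaled CPM. Without SPM_2, an alternative added after seeing the data, it was 25, with Ttr, Apoa2, F12 and Hnf4a leaving. The sum over all 37 genes in SPM_1 was 6.81 times the median DCM library, 4.196 times without Alb and 6.26 times in FPKM. For the 29 concentrated genes it was 147 times, and 77.6 times without Alb, also added after seeing the data. The weight of SPM_1 in SPM_2 was 45.4%, and 45.5% over genes with at least 100 counts. Depth limits genes near 0, where 3 counts equal 0.0755 to 0.1003 CPM. Leaving out SPM_1 or SPM_2 does not leave an independent spermine library if SPM_2 holds RNA or reads of SPM_1, which was not tested.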
